A study of Saccharomyces cerevisiae with 15 samples.

Results

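Mitochondria make only a handful of their own proteins, and the rest are synthesised on cytosolic ribosomes and imported. Precursors enter through the TOM complex of the outer membrane. From there the SAM complex inserts beta-barrel proteins into the outer membrane, the small Tim chaperones carry hydrophobic precursors across the intermembrane space, the TIM22 complex inserts metabolite carriers into the inner membrane, and the TIM23 complex with its Hsp70-driven motor moves presequence proteins into the matrix. The disulfide relay of MIA40 and ERV1 traps small cysteine-rich proteins in the intermembrane space.

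The transcripts of 34 genes of this import machinery were described in Saccharomyces cerevisiae, 34 of 6250 genes measured. A gene was taken when its name on the arrays, or the older name or systematic name of the same reading frame, was that of a member. The arrays list 21 members under the current name and 13 under another name, such as MAS6 for TIM23 and MRS11 for TIM10. All 34 were found, and each was read by 7 spots on each array.

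The series compared methods of strand-specific RNA sequencing with an array reference, and 2 of its 15 samples are the arrays used here. The 13 sequencing libraries were not analysed here. Strain BY4741 was grown in YPD, a rich glucose medium, and its total RNA, labelled with Cy3, was hybridised to each array together with Cy5-labelled BY4741 genomic DNA, whose strain tag reads progenitor. BY4741 is a haploid laboratory strain that carries deletions of HIS3, LEU2, MET17 and URA3, so all RNA came from that background. There was 1 group and no treatment, and each gene could be compared only with other genes of the same array. The labels do not say whether the arrays came from separate cultures, so every p-value measures the spread between 2 arrays that may be technical.

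The measure of a gene is its log2 ratio of RNA to DNA intensity, minus the median over all genes of that array, so that 0 is the median gene and 1 is a 2-fold higher ratio. A gene was called above or below the median gene when its limma test gave an adjusted p under 0.05 and its log2 ratio was at least 1 from 0. RNA intensities of the median gene were 1135 on array 1 and 1390 on array 2, and its DNA intensities 4184 and 4558. The lowest member RNA intensity, that of SAM37, was 733 and 995, against detection floors of 17.05 and 32.9, and 0 members lay at the floor. Member DNA intensities lay between percentiles 15.5 and 87.3 of all genes. The members lie on 13 of 16 chromosomes and 0 of them neighbours another in the RefSeq gene order.

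Of the 34 members, 21 were above the median gene, 0 were below it and 13 were not called. Over all genes tested, 28.2% were above and 31.2% below. The median over members was 1.22, beside lower and upper quartiles of -1.45 and 1.17 over all genes. On both arrays 31 members had a ratio over 0 and 3 had one under 0: SAM37, TIM12 and TIM18. All 34 had an adjusted p under 0.05 in limma, the highest 0.0176 for MAS1, but so did 94.3% of all genes, and the calls therefore turn mainly on the size of the ratio. The 3 members under 0 passed the adjusted p in that direction and missed only the size. With RNA signal alone, not divided by DNA, TIM12 was at -0.07 (adjusted p 0.182 in limma) and TIM18 was over 0, while SAM37 was at -0.56.

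**Figure D1:**
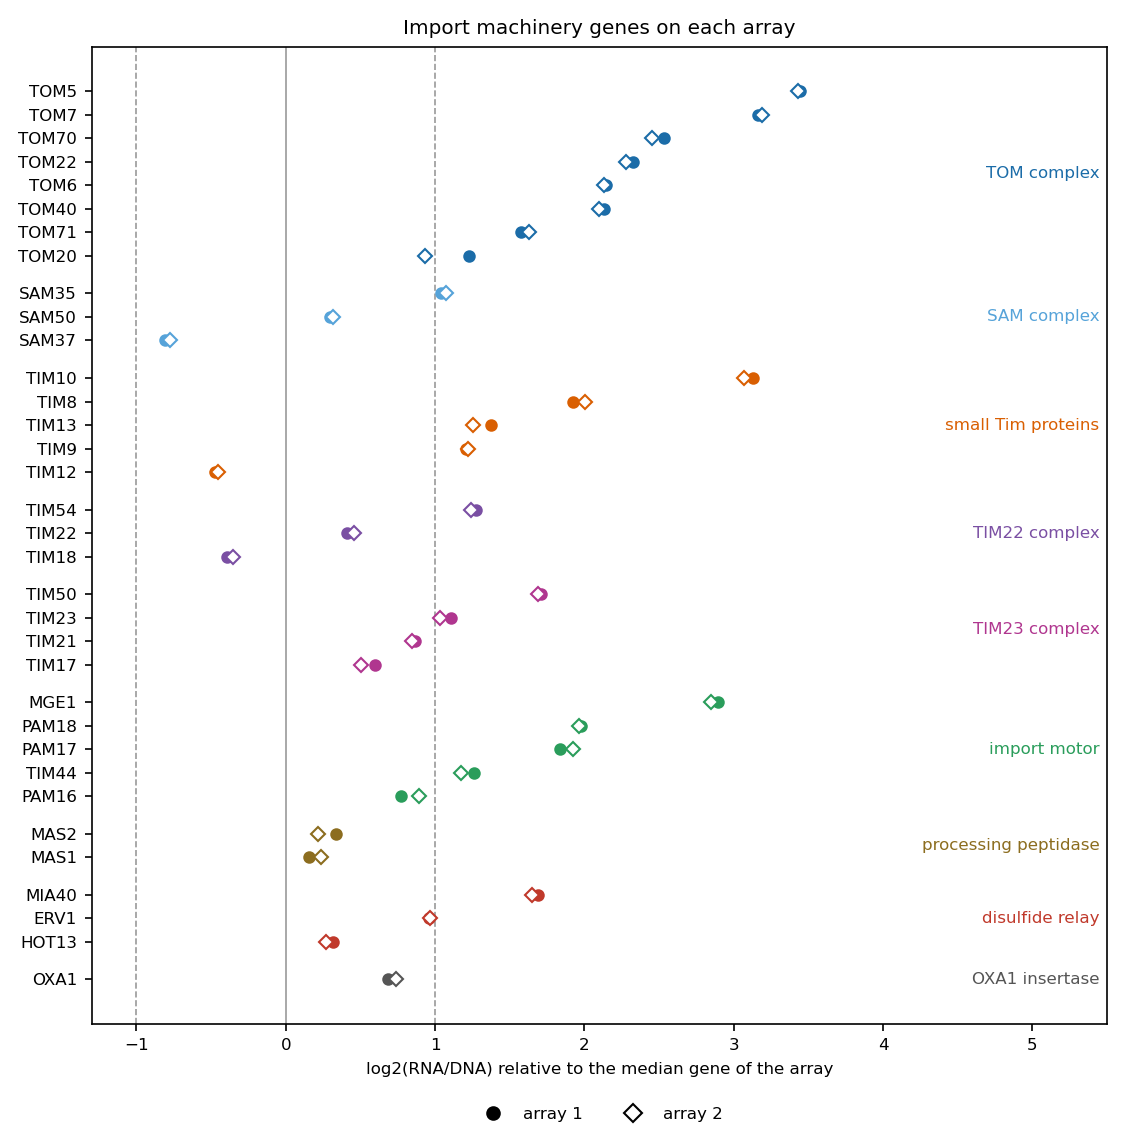
Log2(RNA/DNA) of the 34 genes relative to the median gene of each array (horizontal axis), 1 row per gene grouped by branch, with 1 mark for each array. The TOM genes lie to the right of 0, from 1.08 to 3.44 in the mean of the arrays, and the small Tim genes spread from -0.46 to 3.10.

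The TOM complex is the entry gate, and all 8 of its genes were called above, at a median of 2.22. The highest ratios of the complex were those of TOM5 and TOM7, small subunits that shape its assembly and stability. TOM5 (YPR133W-A) had RNA intensities of 7862 (array 1) and 9779 (array 2) over DNA intensities of 2616 and 2886. Its ratio was 3.44 and 3.43, a mean of 3.44 ± 0.0074 (SD, n = 2), 10.8 times that of the median gene and the highest among members. TOM7 (YNL070W) had RNA intensities of 11489 and 13255, with a ratio of 3.16 and 3.19. By ratio, both arrays thus placed TOM5 before TOM7, with no overlap of their values. With RNA alone the order reversed, with TOM7 at 3.30 and TOM5 at 2.80, and TIM10 was the highest member at 3.43. TOM6 (YOR045W) had RNA intensities of 5825 and 7806 and a lower ratio than the other small subunits, 2.14 and 2.13, 4.40 times the median gene.

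TOM40 (YMR203W), the beta-barrel pore, had RNA intensities of 6229 and 7677 and a ratio of 2.13 and 2.10. TOM22 (YNL131W), the central receptor that holds the complex together, had RNA intensities of 9608 and 11010 and a ratio of 2.33 and 2.28. TOM40 was 0.19 below TOM22 (95% interval -0.31 to -0.07), a difference seen on both arrays at an adjusted p of 0.0156 in limma but under the size needed for a call. With RNA alone the difference was -0.57, and with the mean over spots it was -0.12 at an adjusted p of 0.114 in limma. Against TOM22, 81.2% of all genes were called.

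The other receptors ranged more widely. TOM70 (YNL121C), which receives carrier precursors with their cytosolic chaperones, had RNA intensities of 6914 and 7943 and a ratio of 2.53 and 2.45. Its paralogue TOM71 (YHR117W) had RNA intensities of 3136 and 3870 and a ratio of 1.57 and 1.63. TOM70 exceeded TOM71 by 0.96 and 0.82, a mean of 0.89 (95% interval 0.73 to 1.05), which has an adjusted p of 0.000125 in limma (0.0588 in the fit without moderation) but was not called because it is under 1. The interval includes differences on both sides of that size, and with RNA alone the difference was 1.09. Against TOM71, 70.7% of all genes were called.

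TOM20 (YGR082W), a receptor for presequences, was the lowest of the TOM genes and the member least repeatable between arrays. Its RNA intensities were 3171 and 3715, and its ratio was 1.23 on array 1 and 0.93 on array 2, a mean of 1.08 ± 0.21 (SD, n = 2). The arrays fell on either side of 1, and its 7 spots had an SD of 0.34 on array 1 and 0.11 on array 2. TOM22 exceeded TOM20 by 1.1 and 1.34, a mean of 1.22 (95% interval 0.84 to 1.60), and 63.4% of all genes were called against TOM20. The difference was called in limma with an adjusted p of 4.8e-10, while the fit without moderation gave 0.123. Every difference from TOM20 carries the spread of TOM20 itself, so the moderated p is too small for a reference gene as variable as this one, and to a lesser degree for TIM13 and MAS2.

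The SAM complex, which folds and inserts beta-barrel proteins, was lower, with a median of 0.30 and 1 of 3 genes above. SAM35 (YHR083W), which recognises the sorting signal of its substrates, had RNA intensities of 2651 and 3347 and a ratio of 1.04 and 1.08. SAM50 (YNL026W), the barrel itself, had RNA intensities of 977 and 1311 and a ratio of 0.29 and 0.32. SAM37 (YMR060C), the peripheral subunit, had a ratio of -0.81 and -0.77, the lowest of all members at 0.577 times the median gene. The ranges of these genes did not overlap. SAM37 was 1.85 lower than SAM35 on both arrays (95% interval -1.96 to -1.74, adjusted p 7.1e-05 in limma), a 3.61-fold gap, and 63.0% of all genes were called against SAM35. Together the outer membrane genes had a median of 2.11, with 9 of 11 above.

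The small Tim proteins are chaperones of the intermembrane space that work as hexamers, TIM9 with TIM10 and TIM8 with TIM13. Of 5 genes, 4 were above and the median was 1.31, but the levels ran over 3.56 log2 units, the widest range of any branch named here other than the outer membrane as a whole. TIM10 (YHR005C-A) had RNA intensities of 11916 and 15436 and a ratio of 3.13 and 3.07, which is 8.56 times the median gene. TIM9 (YEL020W-A), its partner, had RNA intensities of 2698 and 3103 and a ratio of 1.21 and 1.22. TIM9 was lower than TIM10 by 1.92 and 1.85, a mean difference of -1.89 (95% interval -2.03 to -1.74, adjusted p 1.07e-05 in limma), or 3.69-fold. The value of TIM9 was lower than that of TIM10 on each array, with no overlap.

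TIM12 (YBR091C), the relative of these chaperones that stays bound to the TIM22 complex, had RNA intensities of 1053 and 1352 and a ratio of -0.47 and -0.45. It lay 3.56 below TIM10 (95% interval -3.71 to -3.41, adjusted p 2.86e-06 in limma), an 11.8-fold gap and the largest of the 14 pairs compared. Against TIM10, a member near the top of the range, 91.2% of all genes were called. TIM8 (YJR135W-A) had RNA intensities of 4213 and 4803 and a ratio of 1.92 and 2.00. TIM13 (YGR181W), its partner, had RNA intensities of 3693 and 4580 and a ratio of 1.37 and 1.26. TIM8 was the higher on both arrays, by 0.55 and 0.75, a mean of 0.65 (95% interval 0.40 to 0.90) that was not called, where 66.0% of all genes were called against TIM13. With RNA alone TIM8 exceeded TIM13 by only 0.13 (adjusted p 0.0871 in limma), and the fit without moderation gave the ratio difference an adjusted p of 0.108. TIM9 neighbours URA3, which BY4741 lacks. The DNA intensity of URA3 was 3.56 and 7.39, and that of TIM9 was 4235 and 3862, so the reference signal of TIM9 was present on both arrays.

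The TIM22 complex inserts carriers into the inner membrane, and its genes had a median of 0.43, with 1 of 3 above. TIM22 (YDL217C), the channel-forming subunit, had RNA intensities of 1356 and 1660 and a ratio of 0.41 and 0.46. TIM54 (YJL054W), which stabilises the complex, had RNA intensities of 2336 and 2989 and a ratio of 1.28 and 1.24, and was called above. TIM18 (YOR297C), a relative of a succinate dehydrogenase anchor, had RNA intensities of 1531 and 1901 and a ratio of -0.39 and -0.35.

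On both arrays the order was TIM54, TIM22, TIM18. TIM54 exceeded TIM22 by 0.83 (95% interval 0.69 to 0.97) and TIM18 was 0.80 below it (95% interval -0.93 to -0.68), and both differences were under the size of a call, while 58.3% of all genes were called against TIM22. The low ratio of TIM18 stood beside a high DNA signal, at percentile 84.8 of all genes. With RNA signal alone, TIM18 lay 0.44 above the median gene, and TIM18 was 0.19 above TIM22.

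The TIM23 complex is the presequence translocase of the inner membrane. Its median was 0.96, and 2 of 4 genes were above. TIM50 (YPL063W), the receptor that takes precursors from TOM, had RNA intensities of 6401 and 7493 and a ratio of 1.71 and 1.69, the highest of the complex. TIM23 (YNR017W), the channel subunit that reaches into the intermembrane space, had RNA intensities of 4054 and 5268 and a ratio of 1.1 and 1.03. TIM17 (YJL143W), its partner in the membrane, had RNA intensities of 3220 and 3992 and a ratio of 0.59 and 0.50. TIM21 (YGR033C), which links the complex to TOM and to respiratory chain complexes, had RNA intensities of 2763 and 3283 and a ratio of 0.87 and 0.85.

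The ranges of these 4 genes did not overlap each other. TIM17 was lower than TIM23 by 0.51 and 0.53, a mean difference of -0.52 (95% interval -0.66 to -0.37, adjusted p 0.000866 in limma) that is under the size of a call. Against TIM23, 63.1% of all genes were called. DNA signal was high for this branch, with a median percentile of 83.3, and with RNA alone the branch median was 1.70 in place of 0.96.

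The import motor pulls precursors into the matrix with the Hsp70 SSC1. Its genes had a median of 1.88 and 4 of 5 were above. MGE1 (YOR232W), the nucleotide exchange factor of SSC1, had RNA intensities of 8127 and 9905 and a ratio of 2.89 and 2.85, which is 7.31 times the median gene. PAM18 (YLR008C), the J protein that stimulates SSC1, had RNA intensities of 3517 and 4369 and a ratio of 1.98 and 1.96. PAM16 (YJL104W), the J-like protein that pairs with PAM18, had RNA intensities of 2900 and 3989 and a ratio of 0.77 and 0.90, the lowest of the motor.

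PAM16 was lower than PAM18 by 1.21 and 1.07, a mean difference of -1.14 (95% interval -1.31 to -0.96, adjusted p 0.000448 in limma), or 2.20-fold, and 76.2% of all genes were called against PAM18. The DNA signal of PAM18 was at percentile 25 and that of PAM16 at percentile 77.3. With RNA alone the difference was -0.20, which is no longer a call. PAM17 (YKR065C), which helps assemble the motor, had RNA intensities of 3048 and 3848 and a ratio of 1.84 and 1.93. TIM44 (YIL022W), which tethers SSC1 to the channel, had RNA intensities of 3262 and 3975 and a ratio of 1.26 and 1.18. TIM44 was 0.15 above TIM23 (95% interval 0.0054 to 0.295, adjusted p 0.0482 in limma), and 0.36 below it with RNA alone.

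**Figure D2:**
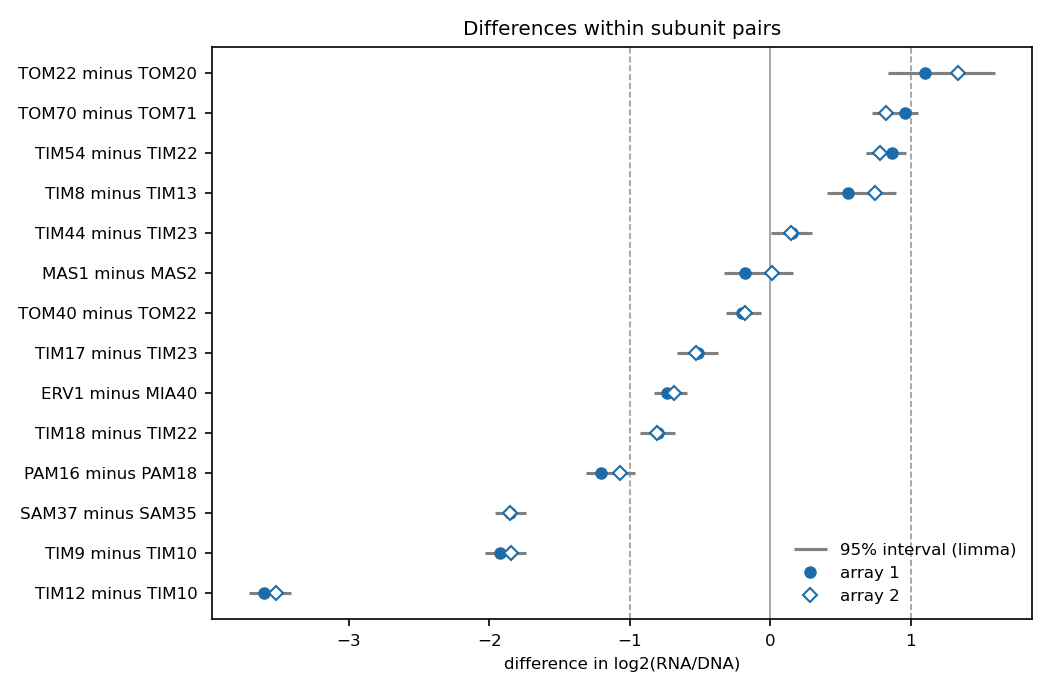
Difference in log2(RNA/DNA) between the first and second gene of each of 14 pairs (horizontal axis), with the value of each array and the 95% interval from limma. TIM12 minus TIM10 lies farthest from 0 at -3.56, and MAS1 minus MAS2 spans 0.

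Past the inner membrane, MAS1 and MAS2 form the peptidase that removes presequences in the matrix, as its beta and alpha subunit. Neither was called. MAS1 (YLR163C) had RNA intensities of 1811 and 2108 and a ratio of 0.16 and 0.24. MAS2 (YHR024C) had RNA intensities of 1639 and 2019 and a ratio of 0.34 and 0.22. Their order changed between arrays, and MAS1 minus MAS2 was -0.18 and 0.017, a mean of -0.08 (95% interval -0.33 to 0.17, adjusted p 0.54 in limma). That interval comes from the moderated fit, where the difference of every gene carries the spread of MAS2, so it sets no firm bound. MAS1 and MAS2 were the 1 pair of 14 with an adjusted p over 0.05, in a comparison where 58.4% of all genes were called against MAS2.

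In the disulfide relay, MIA40 (YKL195W), the receptor that oxidises its substrates, had RNA intensities of 2859 and 3454 and a ratio of 1.69 and 1.65. ERV1 (YGR029W), the oxidase that renews MIA40, had RNA intensities of 1680 and 2060 and a ratio of 0.96 on both arrays, just under the size of a call. ERV1 was 0.71 below MIA40 (95% interval -0.83 to -0.59, adjusted p 0.000475 in limma), which was not called, and 71.5% of all genes were called against MIA40. HOT13 (YKL084W), a zinc-binding protein that assists the relay, had RNA intensities of 2295 and 2667 and a ratio of 0.32 and 0.27. OXA1 (YER154W), which inserts proteins into the inner membrane from the matrix side, had RNA intensities of 2670 and 3436 and a ratio of 0.68 and 0.74.

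Across the 5 branches set side by side, the outer membrane had the highest median, 2.11, followed by the motor at 1.88, the small Tim proteins at 1.31, TIM23 at 0.96 and TIM22 at 0.43. The same order held on each array, where the medians were 2.13 and 2.10, 1.84 and 1.93, 1.37 and 1.26, 0.99 and 0.94, and 0.41 and 0.46. The branches overlapped widely in their members, and the outer membrane alone ran from -0.79 to 3.44. With RNA alone the order changed, to 2.42 for the outer membrane, 1.71 for the small Tim proteins, 1.70 for TIM23, 1.52 for the motor and 0.44 for TIM22. The 20 members needed for growth on glucose had a median of 1.14 with 12 above, and the other 14 a median of 1.46 with 9 above.

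**Figure D3:**
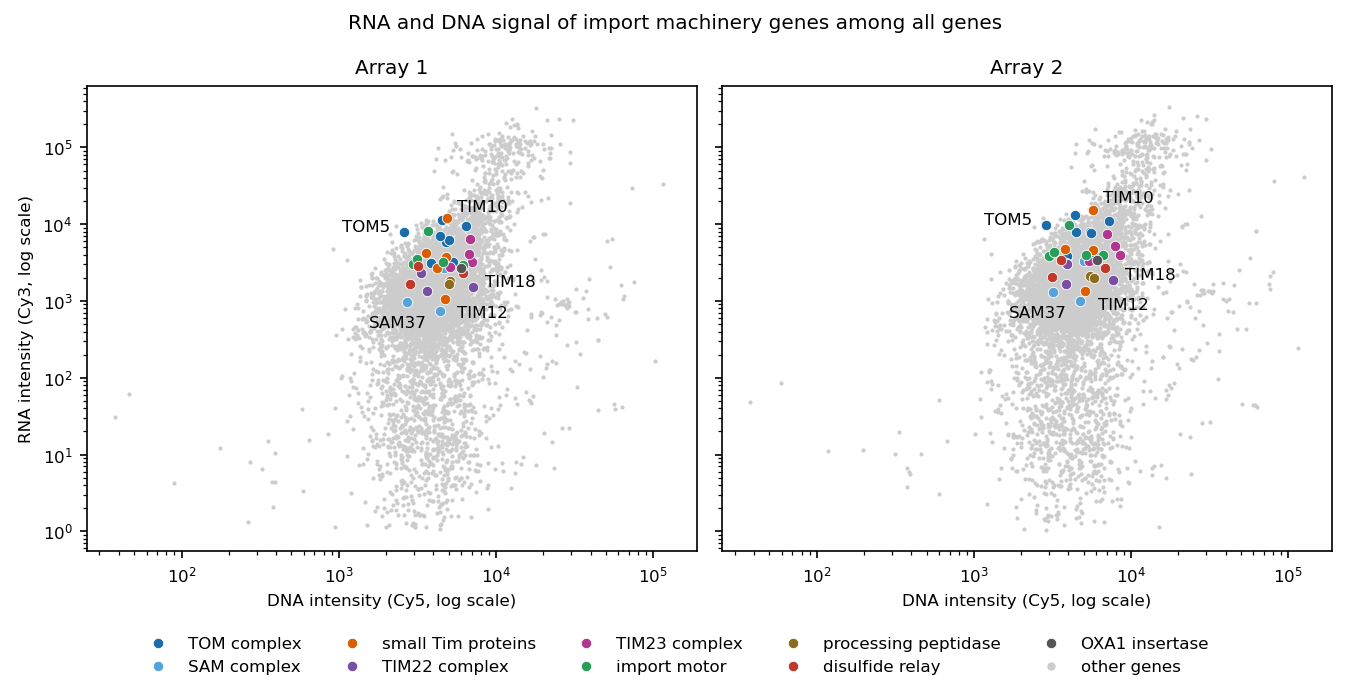
RNA intensity (vertical, log scale) against DNA intensity (horizontal, log scale) for array 1 and array 2, with the 34 genes coloured by branch over all other genes in grey, leaving out 72 and 107 genes with an RNA intensity of 1 or less. The members sit above the floors of 17.05 and 32.9, with the lowest, SAM37, at 733 and 995.

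The members were placed in order of their mean ratio. The widest gaps were 0.57 between MAS1 and TIM18, 0.38 between MGE1 and TOM70 and 0.33 between TIM12 and SAM37. Of 33 neighbouring pairs in that order, 20 had values that did not overlap between arrays and 13 did overlap. The same share was not computed over all genes, so the count is no result about the members. Each range here and above rests on 2 arrays that may be technical, so a lack of overlap does not settle an order. The arrays differed by a median of 0.047 over members and 0.060 over all genes, and by at most 0.127 for members other than TOM20. Across the 34 members the arrays had a Pearson r of 0.997, a description over genes that share the slide. The spread over spots was larger on array 1 for 29 members. The mean ratios of 9 members lay within 0.25 of the size needed for a call, among them TOM20, SAM35 and TIM23 just above 1 and ERV1 just under it, and their calls depend on small shifts.

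**Figure D4:**
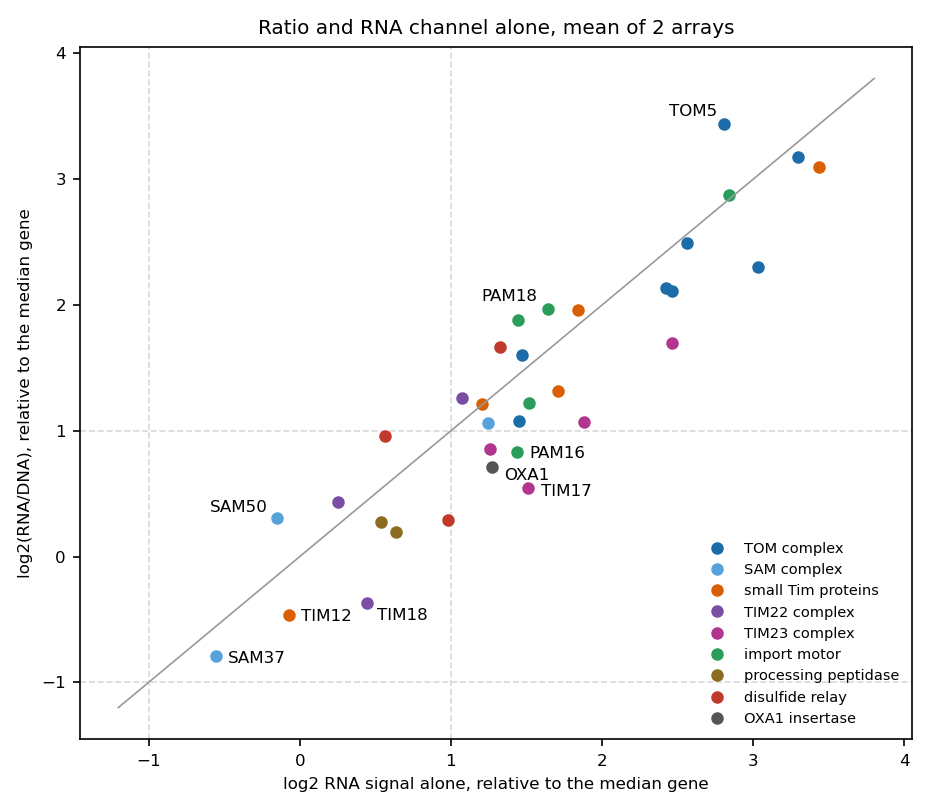
Log2(RNA/DNA) (vertical) against log2 RNA signal alone (horizontal), both relative to the median gene and averaged over 2 arrays, for the 34 genes coloured by branch. TIM17, TIM21, PAM16 and OXA1 lie under 1 by ratio and over 1 by RNA alone, and Pearson r over the 34 genes is 0.916.

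Some members lay elsewhere when RNA was not divided by DNA. All 21 members called above also had an RNA signal alone at least 1 over the median gene. TIM17 had the member DNA signal of highest percentile, 87.3, and was 0.55 by ratio and 1.51 by RNA alone. TOM5 had the lowest, at percentile 15.5, and was 3.44 by ratio and 2.80 by RNA alone. SAM50 was 0.30 by ratio and -0.15 by RNA alone, and TIM18 was -0.37 and 0.44, so both changed sign. Among those higher by RNA alone than by ratio were TIM23 at 1.88, PAM16 at 1.44, OXA1 at 1.27 and HOT13 at 0.98. So were TIM50, at 2.46 in place of 1.70, and TOM22, at 3.03 in place of 2.30. MAS1 at 0.64 and MAS2 at 0.53 were higher by less. Among those lower were ERV1 at 0.57, PAM17 at 1.45 in place of 1.88, and TIM22 at 0.26. TIM12 was closer to the median gene, at -0.07 in place of -0.46. Each gene was read by 1 probe set against DNA at the same probe, so the ratio is not a sum over transcript length, although the part of the DNA signal that reflects probe behaviour was not tested. Cross-hybridisation between paralogues such as TOM70 and TOM71 was not tested.

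Genes that work with the machinery were counted for comparison, beside the 28.2% above and 31.2% below over all genes tested. Of 20 other import and folding genes, 7 were above, 4 below and 9 not called, with a median of 0.55. HSP10, the co-chaperonin of the matrix, was the highest at 3.40, and SOM1, a subunit of the inner membrane peptidase, the lowest at -1.71. SSC1, the motor's Hsp70, was 3.30 and 3.22, higher than any gene of the motor, with an RNA intensity of 29012 and 35835.

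Substrates of the machinery were counted in the same way. Of 18 carriers, which enter through TIM22, 7 were above and 5 below, around a median of 0.34. They ran from CRC1, the carnitine carrier, at -5.63 to OAC1, the oxaloacetate carrier, at 2.68. The RNA intensities of CRC1, 34.8 on array 1 and 44.8 on array 2, were near the floors of 17.05 and 32.9, so its ratio is imprecise. Among 9 disulfide relay substrates the median was 0.99, 4 were above and 2 below, and they ran from MIC14 at -1.05 to MIC17 at 2.56. Of 5 beta-barrel proteins, 2 of them members, 2 were above and 0 below, from MDM10 at -0.92 to TOM40 at 2.11.

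Against other mitochondrial gene sets, 61.8% of the import genes were above the median gene, beside 66.7% of 30 nuclear-encoded respiratory chain and ATP synthase genes and 25.9% of 54 mitochondrial ribosomal protein genes. Their medians were 1.22, 1.59 and 0.50. Over all genes tested, 28.2% were above, close to the share of the ribosomal list. The shares below differed, at 3.7% of the ribosomal list and 31.2% of all genes. In the import and respiratory chain lists, 0 genes were below. The respiratory chain list covers only complexes III and IV and ATP synthase, not the whole chain. None of these differences between lists was tested.

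**Figure D5:**
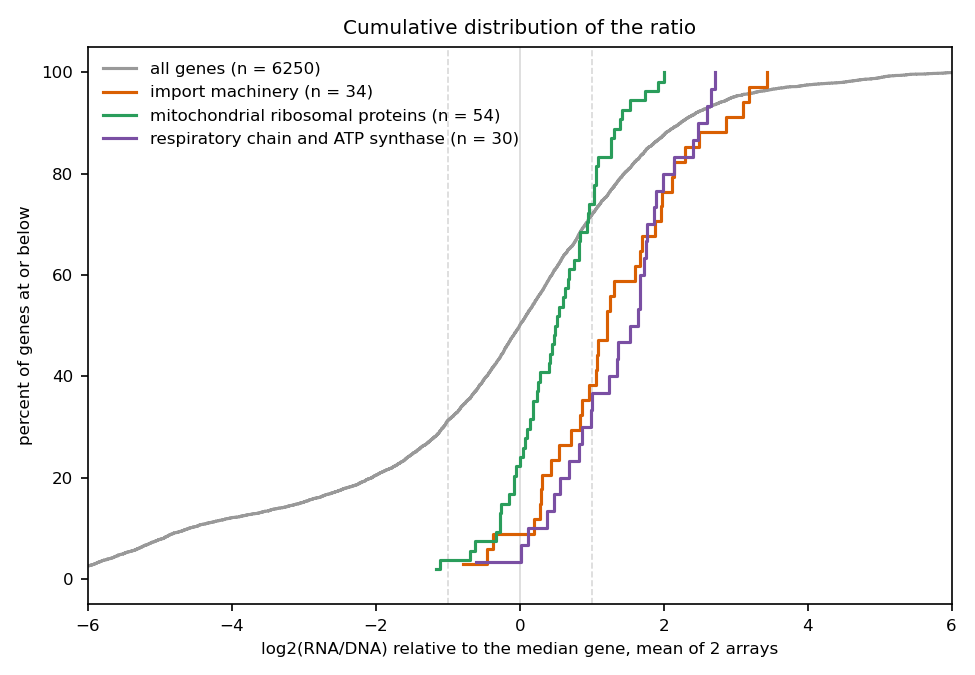
Cumulative percent of genes (vertical) at or below each mean log2(RNA/DNA) relative to the median gene (horizontal), for the 34 import genes, the respiratory chain and ATP synthase genes, the mitochondrial ribosomal protein genes and all 6250 genes. The import genes have a median of 1.22 and all genes a lower and upper quartile of -1.45 and 1.17.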

How the data were processed

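Spot intensities of 2 arrays were used, and per the submitters' processing notes Agilent Feature Extraction 10.5.1.1 produced them. The deposited intensity values taken are those after background subtraction by the authors' software, per the file headers. RNA was in Cy3 on both arrays, so that dye and molecule cannot be told apart, and both arrays lay on 1 slide, per the file headers. Spots whose DNA signal was not well above background, or that carried a saturation or non-uniformity flag in a channel, on either array were dropped, which left 43721 of 43792 spots and 6250 of 6256 genes. RNA intensities under 3 SD of 153 negative control spots were raised to that floor. For each gene, log2(RNA/DNA) was summarised as the median over its spots, and the array's median over genes was subtracted. No read depth applies to arrays, and 2 arrays limit the precision.

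An intercept-only model was fitted to all 6250 genes in limma 3.58.1 (R 4.3.3), with empirical Bayes moderation but no trend, and two-sided p-values were adjusted by Benjamini-Hochberg over these genes. Pairs used the same fit relative to the second gene. Values were computed in Python 3.11.15 with pandas 2.3.3. The moderated fit against the median gene was run on simulated data in which every gene had the same spread. The pair fits and the fit without moderation were not tested in that way. Every member is named, and beyond them the highest and lowest gene of each related list, except that of the last 2 lists only counts are given; SSC1 was named after its values were seen. The members, branches, pairs and lists were chosen with earlier results of these data known. The respiratory chain and ribosomal lists were added after the data were seen, the latter by MRPL, MRPS and RSM symbols, and QCR6, COX12, MDM10, TOM40 and SAM50 are in more than 1 list. Systematic names were matched to RefSeq R64 for current names and gene order. The genome build is not given in the sources used here and positions are left out, and probe sequences were not used here.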

Additional observations from a re-analysis of the deposited data

Results flagged for a closer look

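Spike-in control spots, which no comparison uses, gave signal in the RNA channel. Over 320 spots the median RNA intensity was 2729 on array 1 and 4691 on array 2, against medians of -4.53 and -5.84 for the negative control spots of the same arrays. The RNA intensities of the median gene were 1135 and 1390 on these arrays.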

How the results depend on the processing

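Of 272 member values recomputed under the 8 signal, filter and scaling alternatives, 10 changed their call or sign, in 9 of 34 members, and 18 of the 21 members above the median gene kept the call. On array 2 alone, TOM20 was also under the size of a call, at 0.93. TOM20 fell short of a call at 0.92 with the gradient-corrected signal and at 0.89 when genes at the RNA floor were left out, a step that moved every ratio by -0.19 and also took SAM35 to 0.86, TIM23 to 0.87, MAS1 to 0.0016 and MAS2 to 0.083, the last 2 with an adjusted p over 0.05. The number above was 20 with the gradient-corrected signal, 18 without floor genes, 25 with RNA alone, 31 by adjusted p alone, 20 in the unmoderated fit, 20 to 21 on single arrays and 8 at a log2 threshold of 2. The number below was 3 by adjusted p alone, where 94.3% of all genes passed in either direction. For the other settings the share of all genes was not computed. These counts therefore cannot be set against the 28.2% above and 31.2% below of the main setting.

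With RNA alone, SAM50 was -0.15 and TIM18 was 0.44, both with a changed sign, and TIM17, TIM21, PAM16 and OXA1 were called above. The outer membrane median was 2.08 with the gradient-corrected signal, 2.09 with no background subtraction, 1.92 without floor genes and 2.42 with RNA alone. The small Tim median was 1.12 without floor genes and 1.71 with RNA alone. The TIM22 median was 0.50 with the mean over spots and 0.24 without floor genes. The TIM23 median was 0.77 without floor genes and 1.70 with RNA alone. The motor median was 1.95 with the gradient-corrected signal, 1.69 without floor genes and 1.52 with RNA alone.

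Among pairs, RNA alone gave 1.09 for TOM70 minus TOM71, now a call, and -0.20 for PAM16 minus PAM18, no longer one. It reversed TIM18 minus TIM22 to 0.19, TIM44 minus TIM23 to -0.36 and MAS1 minus MAS2 to 0.10. MAS1 minus MAS2 was also 0.031 with the gradient-corrected signal and ran from -0.18 to 0.017 on single arrays. TOM22 minus TOM20 stayed at 1.22 in the unmoderated fit, with an adjusted p of 0.123, and in that fit TOM70 minus TOM71 and TIM8 minus TIM13 had 0.0588 and 0.108. RNA alone also gave -0.57 for TOM40 minus TOM22 and 0.13 for TIM8 minus TIM13. The mean over spots gave -0.12 for TOM40 minus TOM22, at an adjusted p of 0.114. At a log2 threshold of 2, the calls at 1.22, -1.85, -1.89 and -1.14 were lost. By adjusted p alone, the differences of 0.89, -0.19, 0.65, 0.83, -0.80, -0.52, 0.15 and -0.71 passed in the moderated fit. The share of all genes that passed in this way against the same references was not computed. Against the median gene it was 94.3%, so passing by adjusted p alone does not set these pairs apart. The changes at a threshold follow from the threshold, those without floor genes from the shift of the median, and the cause of the others was not tested.

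No paired analysis was possible because there is 1 group. The description of protein length was not run. With 2 arrays of 1 culture label, 1 slide and 1 dye assignment, the spread between cultures was not measured.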
